A study of Homo sapiens with 6 samples.

Results

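The H3K9me3 peaks of BJ cells carrying PURPL guide 1 were set against those of BJ cells carrying the control guide, on chromosomes 1 to 22. Peaks were taken by chromosome alone, which gave 22148 control peaks and 13980 guide 1 peaks, 36128 of the 50558 peaks in the 3 deposited lists. BJ is an established line of human skin fibroblasts. Both cell lines carried CRISPR interference (CRISPRi), in which a guide RNA brings a transcriptional repressor to a chosen gene. The first line held the control guide (sgCtrl) and the second held guide 1 against PURPL (sgRNA-PURPL#1). The sources used here do not give the repressor, the time since the guide was introduced, or whether a line was 1 clone. Each line had 1 H3K9me3 library and 1 input library from cells fixed with 1% formaldehyde for 10 min. The sequencing depth is unknown, so differences between the lists cannot be told apart from differences in how many peaks each library could yield. Each line has 1 library, so no difference could be set against replicate spread and no test was run. Where given, 95% Wilson intervals cover counting error only. A peak list holds no expression values, so neither the fibroblast label nor the level of PURPL RNA could be checked.

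H3K9me3 is the trimethylation of lysine 9 on histone H3, placed by SUV39H1, SUV39H2 and SETDB1 and bound by the HP1 proteins. It forms constitutive heterochromatin on the satellite repeats around centromeres. On chromosome arms it covers repeat elements and the clusters of zinc finger genes, where KRAB zinc finger proteins and TRIM28 bring SETDB1 to DNA. PURPL is a long non-coding RNA induced by p53. The study's title ties it to epigenetic control of gene expression, and this comparison asks how H3K9me3 differs when it is targeted by guide 1.

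The targeted gene itself carried no peak. PURPL (gene ID 643401, chromosome 5, 27472292 to 27496401, GRCh38) had 0 covered bases in either list. The control had 1 peak within 500 kb of the gene and 8 within 5 Mb, against 0 and 1 with guide 1. The nearest peak lay 114 kb away in the control and 4.84 Mb away with guide 1. The neighbouring cadherin gene CDH9 had 0 covered bases in both lists. The promoters below show the targeted start and 3 starts that differed in how peaks met them. Each is the 250 bases before a RefSeq start site (GRCh38.p14), 5′ to 3′ on the gene's strand. Capitals mark the bases under a peak, and PURPL has none.

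PURPL (chr5:27472042-27472291, plus strand, no peak in either list): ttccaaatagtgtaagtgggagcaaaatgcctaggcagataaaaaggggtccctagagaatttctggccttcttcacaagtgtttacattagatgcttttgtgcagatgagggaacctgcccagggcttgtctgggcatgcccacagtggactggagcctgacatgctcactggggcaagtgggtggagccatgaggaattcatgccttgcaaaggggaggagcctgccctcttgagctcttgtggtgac

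ZNF274 (chr19:58182811-58183060, plus strand, capitals under the guide 1 peak): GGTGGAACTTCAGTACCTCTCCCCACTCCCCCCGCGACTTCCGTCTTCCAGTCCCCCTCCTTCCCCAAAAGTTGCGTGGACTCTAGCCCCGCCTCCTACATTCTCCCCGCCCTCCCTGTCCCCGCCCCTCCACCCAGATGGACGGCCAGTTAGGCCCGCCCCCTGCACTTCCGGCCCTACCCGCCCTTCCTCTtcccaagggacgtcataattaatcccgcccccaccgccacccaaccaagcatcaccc

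C19orf18 (chr19:57974535-57974784, minus strand, capitals under the control peak, no guide 1 peak): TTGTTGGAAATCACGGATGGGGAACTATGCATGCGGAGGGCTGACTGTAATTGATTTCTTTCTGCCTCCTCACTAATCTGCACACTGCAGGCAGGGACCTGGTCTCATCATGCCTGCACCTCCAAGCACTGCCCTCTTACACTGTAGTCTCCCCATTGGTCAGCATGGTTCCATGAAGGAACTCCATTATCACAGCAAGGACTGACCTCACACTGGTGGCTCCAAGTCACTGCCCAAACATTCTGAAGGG

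TAF11L8 (chr5:17590961-17591210, minus strand, capitals under the guide 1 peak, no control peak): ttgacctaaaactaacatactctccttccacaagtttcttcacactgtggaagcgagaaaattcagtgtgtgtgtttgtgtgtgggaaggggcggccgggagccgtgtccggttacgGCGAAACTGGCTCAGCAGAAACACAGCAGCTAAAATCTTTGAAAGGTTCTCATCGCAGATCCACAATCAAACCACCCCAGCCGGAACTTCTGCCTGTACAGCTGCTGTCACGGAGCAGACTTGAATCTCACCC

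ZNF274, whose protein brings H3K9 methylation to zinc finger genes, was chosen because no other coding zinc finger gene had both kinds of peak at a start. Its upstream bases lay under a control peak for 43 of 250 and under a guide 1 peak for 193 of 250. All 250 upstream bases of C19orf18 lay under a control peak running from 57967108 to 57989906 that guide 1 lacked at this position. TAF11L8 belongs to a family of near-identical copies on chromosome 5, so reads there may fit several copies and its difference is uncertain. 7 of its relatives had both kinds of peak at their starts. C19orf18 and TAF11L8 were chosen after their values were seen, by the number of upstream bases under a peak of 1 list alone.

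Start sites were rarely under H3K9me3 in either line. Of 33725 windows running from 250 bases before to 50 after a start, 49 met a control peak and 27 met a guide 1 peak. Both kinds of peak met 14 windows, the control alone 35 and guide 1 alone 13. The 35 windows met by the control alone belonged to 32 genes, 16 of them coding, among them the p53 inhibitor MDM2, the antigen-presentation gene B2M and the protocadherins PCDHB4, PCDHB15, PCDHGA2, PCDHGA8, PCDHGA11 and PCDHGB6. Guide 1 alone met the starts of 9 coding genes, which included the zinc finger genes ZNF117, ZNF177, ZNF470, ZNF518A and ZNF540 and the imprinted gene BLCAP. The median number of CG dinucleotides in the 250 upstream bases was 3 for windows met by the control alone, 13 for those met by guide 1 alone and 11 over all windows. This is a description of few windows, and overlapping starts of 1 gene share bases.

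The guide 1 line had fewer peaks and less length under them. Peaks covered 32.0 Mb in the control and 16.9 Mb with guide 1, which is 52.8% of the control length at 63.1% of the peak number. Mean widths were 1444 and 1208 bp, and medians were 865 and 814 bp. Bases under peaks of both lists came to 12.7 Mb, or 39.9% of the control length and 75.5% of the guide 1 length. The remaining 19.2 Mb of control length divided almost evenly between peaks that guide 1 lacked (9.83 Mb) and uncovered parts of peaks that it shared (9.41 Mb). Guide 1 added 4.14 Mb, of which 2.60 Mb extended shared peaks and 1.54 Mb lay in peaks of its own.

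Chromosomes differed in how much length guide 1 had, and gene-free stretches differed from the rest. Between annotated genes there were 29 stretches of 1 Mb or longer, 172 Mb in all, and on most chromosomes the assembly has its centromeric satellite repeats in such a stretch. Guide 1 had 63.6% of the control length inside them and 34.0% outside. Both shares lay below 100% on all 22 chromosomes. Inside, the share ran from 37.0% on chromosome 18 to 80.9% on chromosome 8, with a median of 63.1%. Outside, it ran from 22.4% on chromosome 3 to 46.2% on chromosome 19, with a median of 29.0%. Chromosomes 21 (45.3%) and 22 (41.0%) followed chromosome 19 in this order. Peak number behaved differently from length inside the stretches, since guide 1 had 135% of the control number on chromosome 6 and 130% on chromosome 20 over a shorter length. The number was below the control on 16 of 22 chromosomes inside the stretches and on all 22 outside. Reads of satellite repeats can fit several chromosomes, so values inside the stretches may not be separate observations.

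**Figure D1:**
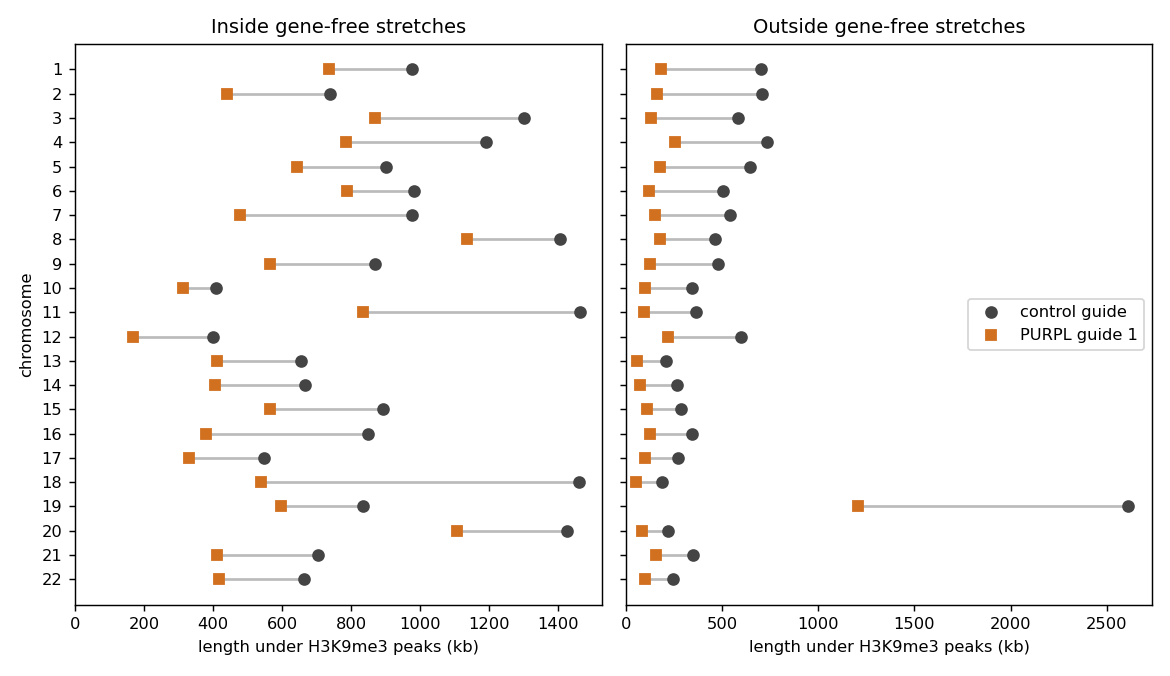
Length under H3K9me3 peaks in kb (horizontal axis) for each of chromosomes 1 to 22 (vertical axis), with the control guide (grey circles) and PURPL guide 1 (orange squares), 1 library each. Left, inside gene-free stretches; right, outside them. Every guide 1 square lies left of its control circle, and chromosome 19 holds the most length outside the stretches, 2609 kb against 1206 kb.

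Overlap depended on the width of the control peak. A guide 1 peak overlapped 9621 of the 22148 control peaks by at least 1 bp (43.4%, Wilson interval 42.8 to 44.1). Outside the stretches the share was 5.18% for control peaks under 300 bp, 11.6% from 500 to under 1000 bp and 58.7% (55.1 to 62.2) from 2000 to under 5000 bp. It reached 95% from 5000 to under 10000 bp and 100% for the 93 peaks of at least 10000 bp. Inside the stretches the same classes gave 35.0%, 55.1%, 89.0%, 98.6% and 100%. A wide peak meets another list more easily by its length alone. The share of bases under guide 1 peaks does not have this property, and outside the stretches it ran from 3.62% in the narrowest class to 56.0% in the widest. Inside it ran from 31.2% to 65.2%.

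**Figure D2:**
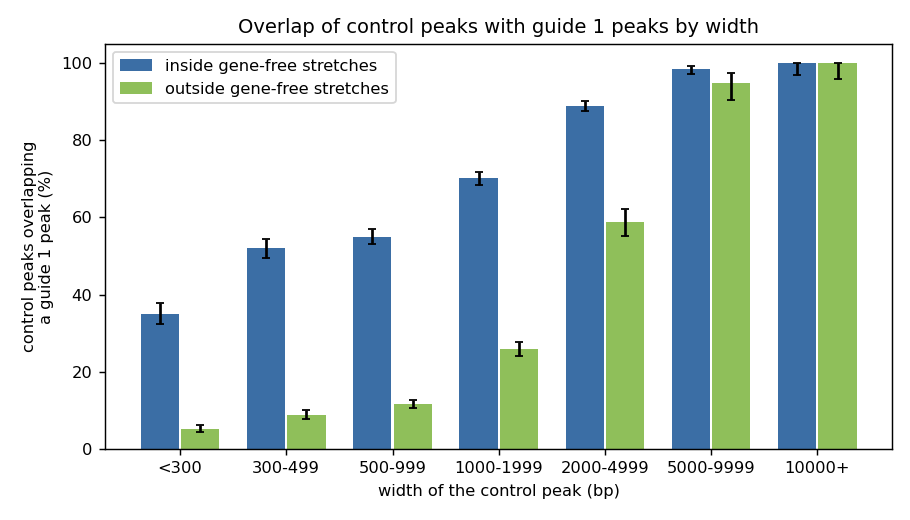
Share of control peaks that overlap a guide 1 peak by at least 1 bp (vertical axis, %) for 7 classes of control peak width (horizontal axis, bp), inside gene-free stretches (blue) and outside (green). Error bars are 95% Wilson intervals. The share is higher in wider classes in both places, from 5.18% to 100% outside and from 35.0% to 100% inside.

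Shared peaks were narrower with guide 1. There were 7436 pairs in which 1 control peak and 1 guide 1 peak overlapped each other and no other peak. The guide 1 peak was the narrower one in 5172 pairs (69.6%), and the median ratio of widths was 0.817 (quartiles 0.447 and 1.05). Outside the stretches median widths were 1211 and 768.5 bp in 1644 pairs, a median ratio of 0.646. Inside they were 1284.5 and 929 bp in 5792 pairs, a ratio of 0.859. The guide 1 peak lay wholly within the control peak in 39.6% of pairs and contained it in 11.3%. The authors' scores of paired peaks ranked alike inside the stretches (Spearman's rho 0.630 across pairs) and less so outside (0.231). These rhos are descriptions across peaks, which share their 2 libraries and are not replicates.

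Wide control domains mostly met several guide 1 peaks. Of 936 control peaks of at least 5000 bp, 703 (75.1%) met at least 2 guide 1 peaks, and the median domain had 57.3% of its bases under them. Guide 1 itself had 310 peaks of this width, and 31 of at least 10000 bp against 217 in the control. The domains were picked by their width in the control, which favours meeting several narrower peaks of the other list. Control peaks from 5000 to under 10000 bp met a mean of 1.96 guide 1 peaks, and those of at least 10000 bp 3.37. Guide 1 peaks of these widths met means of 1.46 and 1.90 control peaks. The widest control peak, on chromosome 4 from 422039 to 471024 (49.0 kb), held 12 guide 1 peaks over 64.6% of its length. It lies over ZNF721 among other zinc finger genes. The next widest outside the stretches lay on chromosome 19, at 36705416 to 36739477 (34.1 kb) and 36804307 to 36836270 (32.0 kb), where 72.2% and 58.6% were covered by 7 guide 1 peaks each. 16 domains met no guide 1 peak, 8 of them outside the stretches. Those included 31900446 to 31906999 on chromosome 16 in ZNF267, 36618194 to 36623736 on chromosome 19 in ZNF382, and 178753325 to 178759429 on chromosome 1 in RALGPS2.

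Guide 1 coverage of wide domains outside the stretches was highest at their middle. In the 253 domains outside the stretches, cut into 10 equal bins from border to border, 66.4% of the bases of bin 5 lay under guide 1 peaks. In bin 1 the share was 39.5% and in bin 10 it was 32.2%. The 683 domains inside the stretches were close to level, with 57.8% in bin 1, 59.2% in bin 5 and 58.3% in bin 10. The shape outside was seen most clearly in the 190 domains that overlap zinc finger genes (39.2%, 69.1% and 30.0%), and the 63 others gave 41.3%, 53.8% and 42.3%. The borders are those of the control peaks. Read the other way, the 82 guide 1 domains of this width outside the stretches had 90.2%, 97.2% and 86.7% of their bases under control peaks in the same bins. With the control limited to as many peaks as guide 1, a setting chosen for this profile after seeing the data, the shares outside were 40.2%, 66.7% and 32.1%.

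**Figure D3:**
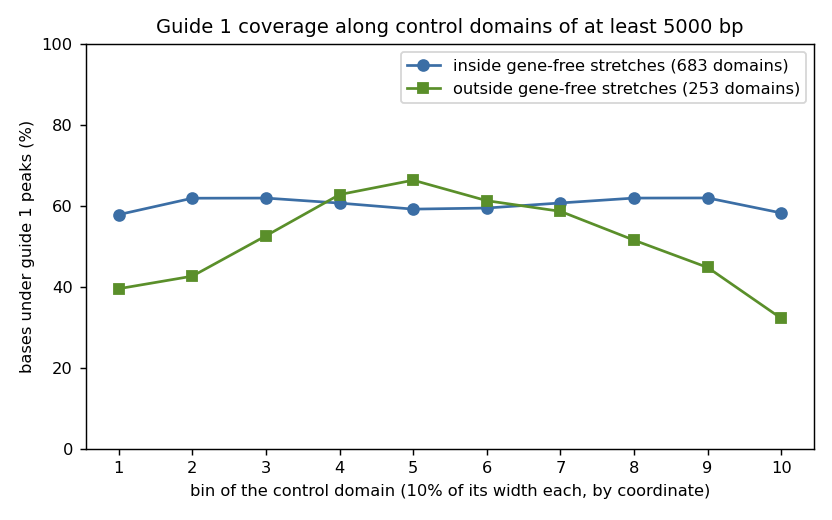
Share of bases under guide 1 peaks (vertical axis, %) in each of 10 equal bins (horizontal axis) along control domains of at least 5000 bp, pooled over 683 domains inside gene-free stretches (blue circles) and 253 outside (green squares). The green line is highest in bin 5 at 66.4% and lowest in bin 10 at 32.2%, while the blue line stays between 57.8% and 62.0%.

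Peaks found with guide 1 alone mostly lay near control peaks inside the stretches, and less often outside them. Of the 13980 guide 1 peaks, 11103 overlapped a control peak (79.4%, Wilson interval 78.7 to 80.1) and 2877 did not. The latter were narrow, with a median of 394 bp against 970 bp for the overlapping ones, and had a median score of 18 against 24. Inside the stretches 1120 stood alone, and 94.3% of them had a control peak within 5000 bp. Control peaks alone there were also near the other list, with 78.7% within 5000 bp of a guide 1 peak. Outside, 1757 guide 1 peaks stood alone, 41.0% within 5000 bp and 422 (24.0%) over 100 kb from any control peak. Control peaks without guide 1 counterpart outside the stretches were more isolated, as 5096 of 8744 (58.3%) lay over 100 kb from a guide 1 peak, although the shorter guide 1 list makes larger distances likelier. The highest-scoring guide 1 peak outside the stretches with no control overlap lay at 190180998 to 190181224 on chromosome 4, in the DUX4 repeat array, 1.00 kb from a control peak. Next came 85972668 to 85972888 on chromosome 16 and 64087142 to 64087636 on chromosome 20, the latter in the opioid-related receptor gene OPRL1 and 368 kb from any control peak. Among control peaks outside the stretches with no guide 1 overlap, the highest score was at 159088935 to 159089476 on chromosome 7 in VIPR2, a neuropeptide receptor gene.

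Whole megabases outside the stretches held control peaks and none with guide 1. Of 2227 windows of 1 Mb outside the stretches with control coverage, 888 (39.9%) had no guide 1 base, and 98 (4.40%) had more guide 1 than control length. Windows with at least 5 control peaks numbered 781, of which 134 had no guide 1 base, and their median share of control length was 19.6%. The 4 windows of chromosome 19 among the 5 with the largest difference, beginning at 37, 52, 36 and 12 Mb, all hold zinc finger clusters. In the window from 37 to 38 Mb, 280 kb stood against 119 kb in 102 and 88 peaks. The window from 36 to 37 Mb had more peaks with guide 1, 81 against 68, over 168 kb in place of 288 kb. The fourth largest was the first megabase of chromosome 4, with 212 kb and 101 kb.

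The largest gain of length in a window outside the stretches fell on the short arm of chromosome 21 from 8 to 9 Mb. There were 27.2 kb in the control and 33.8 kb with guide 1. This window holds no annotated coding gene, and the transcribed pseudogene CDC27P9 there had 3037 bp with guide 1 alone. Whether reads there also fit other chromosomes was not tested. Next was the window from 65 to 66 Mb on chromosome 11, with 12.1 and 14.8 kb in 3 peaks each. Those peaks lie on 2 abundant nuclear long non-coding RNA genes, named here after their values were seen. NEAT1, which builds paraspeckles, had 4537 bp under peaks in the control and 7221 bp with guide 1. MALAT1, which localises to nuclear speckles, had 6671 and 6168 bp. The antisense gene TALAM1 overlaps MALAT1 and cannot be told apart from it in these unstranded peaks.

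Fewer genes were marked with guide 1, where marked means that a peak covers at least 1 base of the gene body. Of 19126 protein-coding genes, 2587 were marked in the control and 1297 with guide 1. Every peak was absent with guide 1 for 1522 of the 2587, or 58.8%. Covered length was at most 1/2 of the control in 81.6% and longer than the control in 144, or 5.57%. In the other direction, 232 of the 1297 genes marked with guide 1 had no control base, or 17.9%. These 4 shares are the background for the gene groups below. In the 1065 genes marked in both lists the median share of control length was 45.8%. Exons and introns could not be told apart here, and overlapping genes count shared bases once each.

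**Figure D4:**
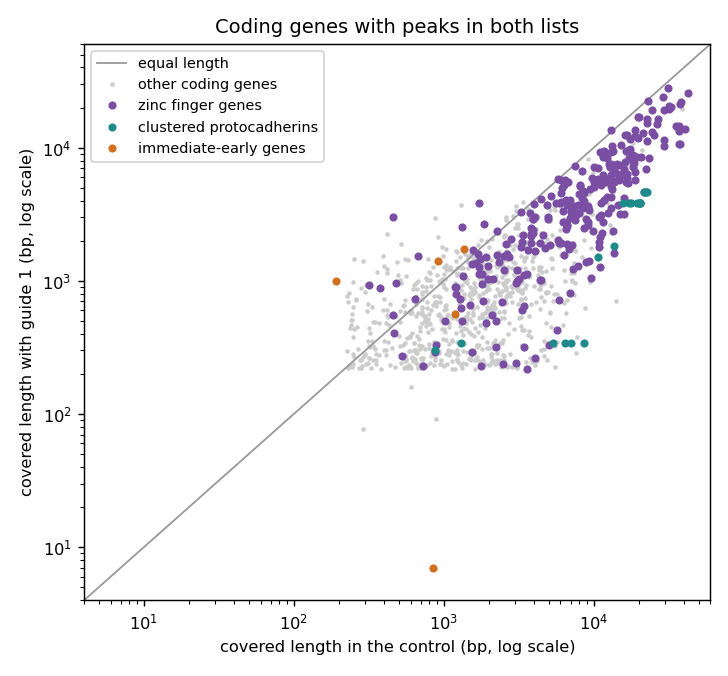
Covered length in bp with PURPL guide 1 (vertical axis, log scale) against the control (horizontal axis, log scale) for the coding genes with peaks in both lists, 1 point a gene. Grey line, equal lengths. Zinc finger genes (purple) and clustered protocadherins (teal) lie mostly below the line, while 3 of the immediate-early genes (orange) lie above it; genes at 0 in either list are not shown.

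Long genes of varied function made up the top of the list of genes marked in the control alone. EPM2A, the glycogen phosphatase laforin (chromosome 6, 145383353 to 145736023), had 7708 bp in 7 control peaks and 0 with guide 1. The diphthamide synthesis gene DPH6 had 6604 bp in 4 peaks and the transcription co-activator gene SUPT3H 6386 bp in 8 peaks, both with 0 in guide 1. AFG2A (7707 bp), RFX7 (7325 bp), CDK14 (6934 bp), PLCB1 (6636 bp), ZNF454 (6059 bp), CNTLN (5645 bp) and DNAJC1 (5443 bp) complete the 10 with the longest control coverage and none with guide 1. With scores at least at the pooled median 6 of these 10 had no base in either list, EPM2A, AFG2A, CDK14, PLCB1, DPH6 and ZNF454. With the control limited to as many peaks as guide 1, all 10 kept control coverage, but EPM2A had 289 bp. Among coding genes of at least 30 kb and under 100 kb, 528 of 822 control-marked genes had none with guide 1 (64.2%), against 108 of 309 from 10 to under 30 kb (35.0%). Longer genes did not follow one direction, at 65.3% from 100 to under 300 kb and 55.0% (236 of 429) in longer genes, and it was 39.5% under 10 kb. Zinc finger genes were not set apart in these length classes, and their part in these shares was not tested.

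Genes covered with guide 1 alone had short coverage. The longest was 1851 bp at SHC2, a signalling adaptor gene, followed by the endocytic scaffold gene ITSN1 with 1820 bp, PRUNE2 with 1772 bp, the lysosomal sulfatase gene ARSB with 1672 bp and LYPD6 with 1557 bp. The phosphodiesterase gene PDE5A had 1251 bp, the GTPase gene RAP1A 1204 bp and FAM153A 1195 bp. USP17L25 (1401 bp) and USP17L19 (1224 bp) are near-identical deubiquitinase copies of 1 tandem array, so their reads may be split among copies. With scores at least at the pooled median 9 of these 10 had no base in either list, and USP17L19 alone kept its 1224 bp. Among genes with control coverage, ZNF546 had the largest gain, from 460 to 3018 bp. The mitotic checkpoint gene MAD1L1 had 1305 and 3727 bp, ZSCAN30 1721 and 3836 bp, the sheddase gene ADAM10 871 and 2955 bp, FXYD5 419 and 2250 bp, and STXBP3 518 and 1873 bp. With scores at or above the pooled median, ZSCAN30, ADAM10 and STXBP3 had 0 bp with guide 1 and 1018, 871 and 518 bp in the control, which turns the direction. Of the 10 genes with the largest gain, 3 kept their direction there, ZNF546, FXYD5 and ZNF230, and 4 had no base in either list, among them MAD1L1. CCDC3 and the recombinase gene RAG1 had 0 bases common to both lists, so their control and guide 1 peaks lie at different places.

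Zinc finger genes were marked more often than other genes and seldom had every peak absent. Of 542 members, 329 were marked in the control and 284 with guide 1, beside 13.5% and 6.78% of all coding genes. All peaks were absent with guide 1 in 51 of the 329 (15.5%), set against 58.8% of all control-marked coding genes. The 329 held 2937 kb of the 6558 kb under control peaks in the 2587 control-marked coding genes. Genes with more control length less easily have every peak absent, and the part of length in this share was not tested. Length was shorter in 314 and longer in 15, beside 5.57% longer of all control-marked coding genes. The median member had 43.8% of its control length (quartiles 23.1% and 61.7%). With the control limited to as many peaks as guide 1, 16 of 277 had none (5.78%, against 46.7% of all). With scores at least at the pooled median, 72 of 234 had none (30.8%, against 68.9% of all). ZNF614 (4939 bp), ZNF816 (3940 bp) and ZNF273 (3774 bp), named after their values were seen, followed ZNF454 among the 51. ZNF766 (992 bp), ZSCAN22 (939 bp), ZNF114 (667 bp), ZFP64 (472 bp), ZNF684 (380 bp) and ZNF581 (261 bp) had guide 1 coverage alone, and these 6 too were named after their values were seen. They are 6 of the 284, beside 17.9% of all coding genes marked with guide 1.

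Members differed widely in the length left. ZNF140 on chromosome 12 (133080425 to 133107428) had 23004 bp in the control and 22546 bp with guide 1, or 98.0%. ZNF544 had 31465 and 28187 bp (89.6%) and ZNF274 28801 and 23870 bp (82.9%), the latter in 2 control and 6 guide 1 peaks. With scores at least at the pooled median ZNF140 was unchanged, but ZNF544 had 28243 and 3700 bp and ZNF274 28801 and 15819 bp. Among the largest losses in bp, ZNF578 had 37603 and 10705 bp (28.5%), ZNF569 36771 and 10620 bp (28.9%) and ZNF717 40645 and 13858 bp (34.1%). ZNF91, a repressor of SVA retrotransposons and the member with the longest control coverage, had 42661 and 25560 bp (59.9%). ZNF69 (58.1%) and ZNF721 (64.8%) lay near it.

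Coverage of zinc finger genes was higher toward the 3′ end in both lines. In 285 control-marked zinc finger genes with a known strand, control coverage was 10.4% of the bases in bin 2 of 10 along the gene body and 34.0% in bin 10, and guide 1 coverage was 4.40% and 18.0%, with its highest value, 20.4%, in bin 9. The length left was 31.7% of the control in bin 1 and 60.1% in bin 9. The 3′ end is where the exon for the zinc finger array usually lies. In 1836 other control-marked coding genes neither list had such a slope, with 0.623% and 0.580% of bases in bins 1 and 10 in the control and 0.133% and 0.152% with guide 1.

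**Figure D5:**
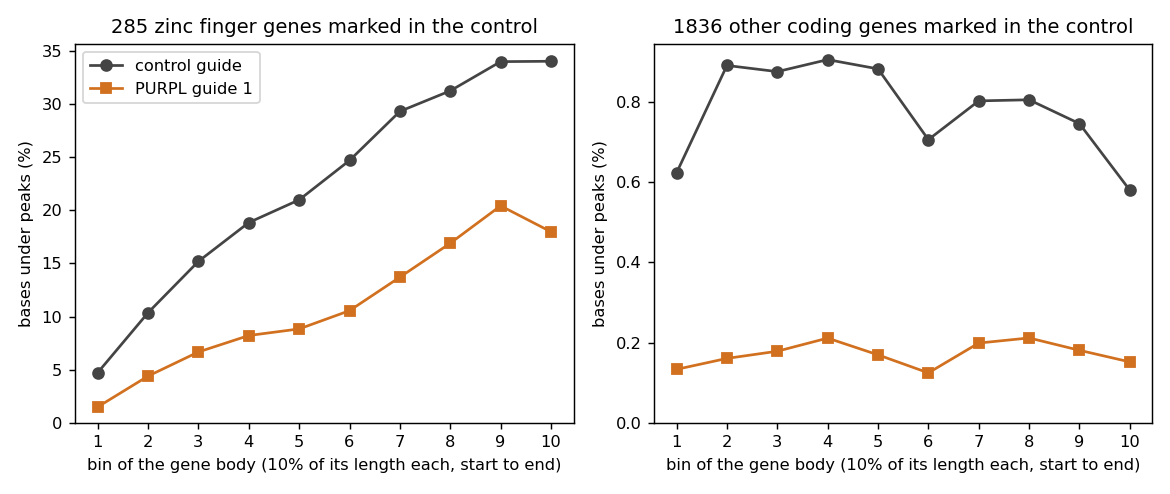
Share of bases under peaks (vertical axis, %) in each of 10 equal bins of the gene body, from the start to the end of the gene (horizontal axis), with the control guide (grey circles) and PURPL guide 1 (orange squares). Left, 285 zinc finger genes; right, 1836 other coding genes, all marked in the control; the vertical scales differ. In the left panel both lines climb along the gene, the control to 34.0% in bin 10 and guide 1 to 20.4% in bin 9, with 18.0% in bin 10.

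Zinc finger genes had a like share of length left on and off chromosome 19, but fewer of those on it had no guide 1 peak. The length left was 48.7% for the 258 members on chromosome 19 and 49.2% for the 284 elsewhere, while other coding genes had 40.9% and 25.2%. All peaks were absent in 20 of 200 marked members on chromosome 19 (10%) and 31 of 129 elsewhere (24.0%). For other coding genes these shares were 56.9% and 65.4%. Single peaks gave the same order. Control peaks in zinc finger genes overlapped guide 1 in 52.3% of cases on chromosome 19 (Wilson interval 48.1 to 56.5) and 46.8% elsewhere (41.4 to 52.2). Away from these genes and the stretches the shares were 29.9% (25.6 to 34.6) and 14.8% (14.1 to 15.5). Control peaks in zinc finger genes were also wider, with medians of 1751 and 1473 bp against 888 and 636 bp, and the part of width in this order was not tested.

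Clustered protocadherins are neural adhesion genes of chromosome 5, and 24 of 53 were marked in the control, beside 13.5% of all coding genes. These were 5 beta genes with separate bodies and 19 gamma genes whose bodies overlap. All 24 were shorter with guide 1. Each had at most 1/2 of its control length, set against 81.6% of all control-marked coding genes, and 4 had none. PCDHGA1 had 22551 bp in 17 control peaks and 4666 bp in 5 guide 1 peaks. Control coverage was 22400 bp at PCDHGA2 and 21475 bp at PCDHGA3, both with the same 4666 bp under guide 1 peaks, since these genes share most of their length. PCDHGB6, further along the cluster, had 8673 and 343 bp, and PCDHGA12 had 1311 and 343 bp, both named after their values were seen. The 19 gamma members are therefore far fewer separate observations.

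Immediate-early genes, which are induced within minutes by serum or stress, were marked slightly more often with guide 1. Of 30 members, 5 were marked in the control and 7 with guide 1, beside 13.5% and 6.78% of all coding genes. None of the 5 had every peak absent (58.8% of all), and 3 were longer with guide 1 (5.57% of all). FOS, a subunit of the AP-1 transcription factor (chromosome 14, 75278828 to 75282230), had 913 bp in the control and 1419 bp with guide 1, and FOSB (chromosome 19, 45467996 to 45475179) had 1370 and 1724 bp. The phosphatase gene DUSP1 had 190 and 998 bp under peaks that do not overlap each other. The matricellular gene CCN1 was shorter, with 1182 and 565 bp. The peak at the transcription factor gene EGR1 covered 845 bp of the gene in the control and 7 bp with guide 1, although the guide 1 peak was the wider one (2071 against 1597 bp) and lay mostly beyond the gene's end. JUN (270 bp) and KLF6 (577 bp) were marked with guide 1 alone, and DUSP1, EGR1, JUN and KLF6 were named after their values were seen. JUN and KLF6 are 2 of the 7, beside 17.9% of all coding genes marked with guide 1. Keeping scores at least at the pooled median, 3 members were marked in the control and 4 with guide 1, while FOS had no base in either list. Of those 3, 1 had every peak absent (68.9% of all) and 1 was longer (3.20% of all). With gene bodies extended by 5000 bp, 7 were marked in the control and 8 with guide 1. Of those 7, 2 had every peak absent (60.1% of all), 3 were longer (5.91% of all) and 4 were shorter. Within their own list, peaks scored at percentiles 49.0 (control) and 35.3 (guide 1) for FOS, 58.6 and 61.4 for FOSB, and 74.0 and 87.4 for EGR1. The guide 1 peaks at CCN1 (percentile 1.09) and KLF6 (6.10) were among the weakest.

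Of 29 genes of the H3K9 methylation machinery, 10 were marked in the control, beside 13.5% of all coding genes. None of the 10 was longer with guide 1, near the background in which 5.57% were longer. The SETDB1 partner ATF7IP had 7395 and 1351 bp, the H3K9me-binding corepressor gene CDYL 4600 and 960 bp, and the demethylase gene KDM4B 2521 and 926 bp. The writer SETDB1 had 863 and 232 bp and EHMT1 602 and 570 bp, while SETDB2 (508 bp), SMCHD1 (969 bp) and PRDM16 (378 bp) had none with guide 1. SETDB1, EHMT1, SETDB2, SMCHD1 and PRDM16 were named after their values were seen. The 3 of 10 with every peak absent stand beside 58.8% of all control-marked coding genes. With that score minimum 5 of 7 had none, near the 68.9% of all at this setting, and KDM4B was then 178 bp longer with guide 1.

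Few genes tied to p53 were marked in either list. Of 32 targets, 2 were marked in the control and 4 with guide 1. Of all coding genes, 13.5% were marked in the control and 6.78% with guide 1. MDM2, the ligase that degrades p53 (chromosome 12, 68808172 to 68850686), had 1498 bp in the control and 809 bp with guide 1. The signal co-integrator subunit gene ASCC3 had 1789 and 309 bp. The DNA repair gene XPC (1106 bp) and, named after its value was seen, the death receptor gene TNFRSF10B (564 bp) were marked with guide 1 alone. They are 2 of the 4, beside 17.9% of all coding genes marked with guide 1. Among 10 regulators, the kinase gene ATM had 2835 and 0 bp and TP63 571 and 0 bp. With the score minimum none of the 32 targets was marked with guide 1, and with the control limited in number none of the 10 regulators was marked in the control.

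The fibroblast matrix list held 9 control-marked and 2 guide 1-marked genes among 38, beside 13.5% and 6.78% of all coding genes. Every peak was absent in 7 of the 9, among them the proteoglycan gene DCN with 3288 bp, beside 58.8% of all control-marked coding genes. With the control limited in number it was 2 of 4, beside 46.7% of all. DCN then had no control base. COL12A1 had 4503 and 2141 bp and COL14A1 3063 and 232 bp, the latter with 0 bases in common. With the score minimum COL12A1 had 237 bp in the control and 2141 bp with guide 1, which turns the direction. Of the genes of other cell types, control peaks met 2 of 12 keratinocyte, 2 of 10 melanocyte, 2 of 10 endothelial and 2 of 11 blood genes, beside 13.5% of all coding genes. Guide 1 peaks met 1 melanocyte gene (OCA2, 318 and 263 bp with 0 bases in common) and none of the others. Keratin genes (55) and HOX genes (39) had no coverage in either list, olfactory receptors had 6 of 389 marked in the control and 0 with guide 1, and ribosomal protein genes 1 of 77 and 0.

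Among 38 long neuronal genes 19 were control-marked and 10 guide 1-marked, and every peak was absent in 12 of the 19 (63.2%, near the 58.8% of all). The potassium channel partner KCNIP4 had 5155 bp in 7 control peaks and none with guide 1, and the synaptic adhesion gene NLGN1 3452 bp and none. The vesicle sensor gene SYT1 had 4400 and 862 bp with 0 bases in common. The imprinted list held 3 control-marked and 2 guide 1-marked genes among 27. KCNQ1 had 17381 bp in 15 peaks and 7541 bp in 9 peaks, and all of the guide 1 length lay in KCNQ1OT1, the long antisense RNA gene inside it, which had 15008 and 7541 bp and was named after its values were seen. Germline genes had 3 of 25 marked in the control and 2 with guide 1, with DDX4 at 1074 and 0 bp, SYCP1 at 0 and 1023 bp and PIWIL4 at 651 and 960 bp with no common base. Cell cycle genes had 3 and 2 of 30, among them RB1 with 4338 and 1912 bp, which became 926 and 1038 bp with the score minimum. Centromere and lamina genes had 4 and 3 of 19, led by the kinetochore motor gene CENPE with 1617 and 254 bp.

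Long non-coding RNA genes had every peak absent more often than coding genes. Of 1165 long non-coding RNA genes marked in the control, 845 had none with guide 1 (72.5%), beside 58.8% of coding genes. Coding genes other than zinc finger genes lay nearer, at 56.9% on chromosome 19 and 65.4% elsewhere. Of 450 long non-coding RNA genes marked with guide 1, 130 had no control base, beside 17.9% of coding genes. LOC105379580 (5857 bp), ADK-AS1 (4768 bp), ZNF528-AS1 (4331 bp), LINC01483 (4320 bp) and LOC124904755 (3960 bp) had the longest control coverage with none in guide 1. Besides CDC27P9, LOC105379514 (1803 bp), LOC105376095 (1772 bp), RAET1E-AS1 (1460 bp) and LOC100506274 (1404 bp) had the longest coverage with guide 1 alone. LOC105376095 overlaps PRUNE2, and both values come from the same peaks. Small RNA genes were nearly all outside peaks, with 2 of 1793 microRNA genes marked in the control and 5 with guide 1, and 22 and 15 of 1150 small nucleolar RNA genes.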

How the data were processed

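H3K9me3 ChIP-seq peak lists of BJ cells with the control guide and with PURPL guide 1 were used, 1 library each. The submitters' processing notes name MACS2 2.2.9.1, a peak caller, the aligner Bowtie2 2.4.2, then deepTools 3.5.1 and GATK, with builds hg38 and GRCh38.p13. Their settings and the depth were not given in the sources used. The deposited score per peak is the authors' own, a whole number of at least 10 on an unnamed scale, and it served to describe, rank or filter peaks. Each list is named as 1 H3K9me3 library against its own input, so peaks were not called on pooled samples. Names inside the lists carry other guide labels, and the lists were matched to groups through the sample titles.

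Peaks on chromosomes 1 to 22 were kept, which left out 6.36% of control and 4.99% of guide 1 peaks. Guide 2 was read for its number of peaks alone. Gene positions, start sites and promoter sequences came from RefSeq tables for GRCh38.p14, and chromosome coordinates are those of GRCh38. Overlap needed 1 bp. Python 3.11.15 was used with pandas 2.3.3 and numpy 2.4.6, intervals came from scipy 1.17.1, plots from matplotlib 3.10.9, and the interval code was tested on simulated data. The members and the 20 gene lists were chosen with earlier results of these data known. Genes were named by rank within classes (none with guide 1, none in the control, largest loss, largest gain, longest common length), with up to 3 per list, and 1 gene so named is not reported here. No test was run. Alternatives changed the overlap, a score minimum (pooled median), the number of control peaks, merging, chromosome X and gene borders.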

Additional observations from a re-analysis of the deposited data

How the results depend on the processing

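The control list stayed the longer one in each alternative tried, but the shares depended on the processing. With 50% of the peak to be covered, 27.2% of control and 68.0% of guide 1 peaks were shared. With scores at least at the pooled median the shares were 48.8% and 77.9%, guide 1 had 48.8% of the control length, 68.9% of control-marked coding genes had no guide 1 base and 31.7% of guide 1-marked genes no control base. With the control limited to as many peaks as guide 1 (14680 with ties) these values were 57.4%, 71.3%, 64.8%, 46.7% and 36.4%. With peaks within 5000 bp merged, 26.9% of control and 70.6% of guide 1 regions were shared and guide 1 had 62.6% of the control length. With chromosome X added, 42.8% of control peaks were shared. The other alternatives left these values within their Wilson intervals or, for length with chromosome X, at 52.4%. The cause was not tested.

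Of 90 genes named by the rule, 7 changed direction with that score minimum, 19 stayed within 1.5 times and 64 moved further, 45 of them to no base in either list. With the control limited in number 0 changed direction, 53 stayed within 1.5 times and 37 moved further, 14 of them to no base. The change with guide 1 became -871 bp at ADAM10, -518 bp at STXBP3, -1018 bp at ZSCAN30, 242 bp at CENPU, 1904 bp at COL12A1, 178 bp at KDM4B and 112 bp at RB1. No paired analysis was possible because each cell line had 1 H3K9me3 library. Unknown depth limits every comparison of number or length.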
